A study of Homo sapiens with 2 samples.

Results

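The distal 14q32 group is the part of the imprinted miRNA cluster of human chromosome 14 that runs from MIR379 to MIR656. Its probes were chosen by name, as every mature, passenger and precursor probe with the number of a miRNA of that stretch, any letter or arm suffix included. They were 80 of the 1329 probes of the array, 52 for mature or passenger miRNAs and 28 for precursors. By older names in RefSeq (GRCh38.p14), they belonged to 41 of the 42 miRNA genes of the stretch, all of them between DLK1 and DIO3, and MIR1193 was not analysed here. MKN1, an established human gastric cancer cell line, was cultured for 24 h under normoxia (20% O2) or under hypoxia (1% O2) with no other treatment, and total RNA of each culture was read on 1 miRNA array. The study asked which miRNAs differ between these conditions, and it followed miR-382, a member of this group. With 1 array per condition there was no replicate, so each difference below is one between 2 arrays and carries no error or test.

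miRNA genes are transcribed as long primary RNAs, from which the nuclear enzyme Drosha cuts a hairpin precursor and the cytoplasmic enzyme Dicer a short duplex. One strand, the mature miRNA, then guides repression through its seed, bases 2 to 8 from the 5′ end, while the other (the passenger, often written with a star) is mostly lost. The distal 14q32 genes are expressed from the maternal chromosome, lie close together in 1 orientation and are best known from the placenta, the embryo and the brain. In rat neurons miR-134, miR-329 and miR-381 of this group take part in dendrite growth.

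The miRNAs below are shown because they differed by over 2-fold between the arrays, in the order of their genes. Sequences are from RefSeq (GRCh38.p14), with the seed in capitals, and were matched to the array's older names through miRBase's renaming of arms, which placed 49 of the 52 mature and passenger probes.
miR-299-5p: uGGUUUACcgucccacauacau
miR-323-5p: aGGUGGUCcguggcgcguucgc
miR-487b: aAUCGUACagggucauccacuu
miR-539: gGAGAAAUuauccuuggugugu
miR-487a: aAUCAUACagggacauccaguu
miR-382: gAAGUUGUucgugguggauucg
In GRCh38.p14 all 6 lie on the plus strand, from miR-299-5p at chr14:101023800-101023821 to miR-382 at chr14:101054316-101054337. The array's own files name no genome build.

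The deposited values are normalized signals on a linear scale, on which 20 was the lowest signal listed and other probes were given as 0, a value whose meaning is not stated in the sources used here. Over the whole array 663 probes had a signal on both arrays, 174 on the hypoxia array only, 2 on the normoxia array only and 490 on neither. The change between the arrays went with the signal, since mature and passenger probes with a normoxia signal under 100 had a median fold change of 1.39 and those from 300 up one of 0.909. A normoxia reading that is low by error also raises the fold change, since it is the divisor. The share of this in the dependence was not tested. Across the 663 probes the median, on the log2 scale, was 0.14.

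Of the 52 mature and passenger probes of the group, 23 were listed on both arrays (44.2%), 10 on the hypoxia array only (19.2%), 19 on neither (36.5%) and none on the normoxia array only. For all 879 mature and passenger probes of the array the first 3 of these shares were 58.0%, 9.78% and 32.1%. The signals of the 23 ran from 20 to 2204 under normoxia and from 27 to 2568 under hypoxia. Among them 20 were higher and 3 lower under hypoxia (87.0% higher), against 53.5% higher for all 510 mature and passenger probes of the array with a signal on both arrays. Their median log2 fold change was 0.33, with quartiles of 0.15 and 0.98, against a median of 0.076 for the 510. Over 2-fold higher were 6 of the 23 (26.1%), beside 9.02% of the 510, and over 2-fold lower was none, beside 2.35%. The group was dimmer than the array, with a median normoxia signal of 106 against 385, so the shares were also read by signal. With a normoxia signal under 100, 3 of 10 members were over 2-fold higher, against 23 of 108 such probes of the whole array, with 2 of 6 against 14 of 121 from 100 to under 300 and 1 of 7 against 9 of 281 from 300 up. This grouping too rests on the signal that divides the fold change. Once the dependence on signal was taken out with a lowess curve, the median was 0.14 with 13 higher and 10 lower, and the median of the 510 was 0.0056. After quantile normalization 12 were higher and 11 lower. In that setting the 23 members centred on a log2 fold change of 0.11, and all 663 probes with both signals on 0. The share of the 510 that was higher is not given for these 2 settings, so both counts stand without a background.

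**Figure D1:**
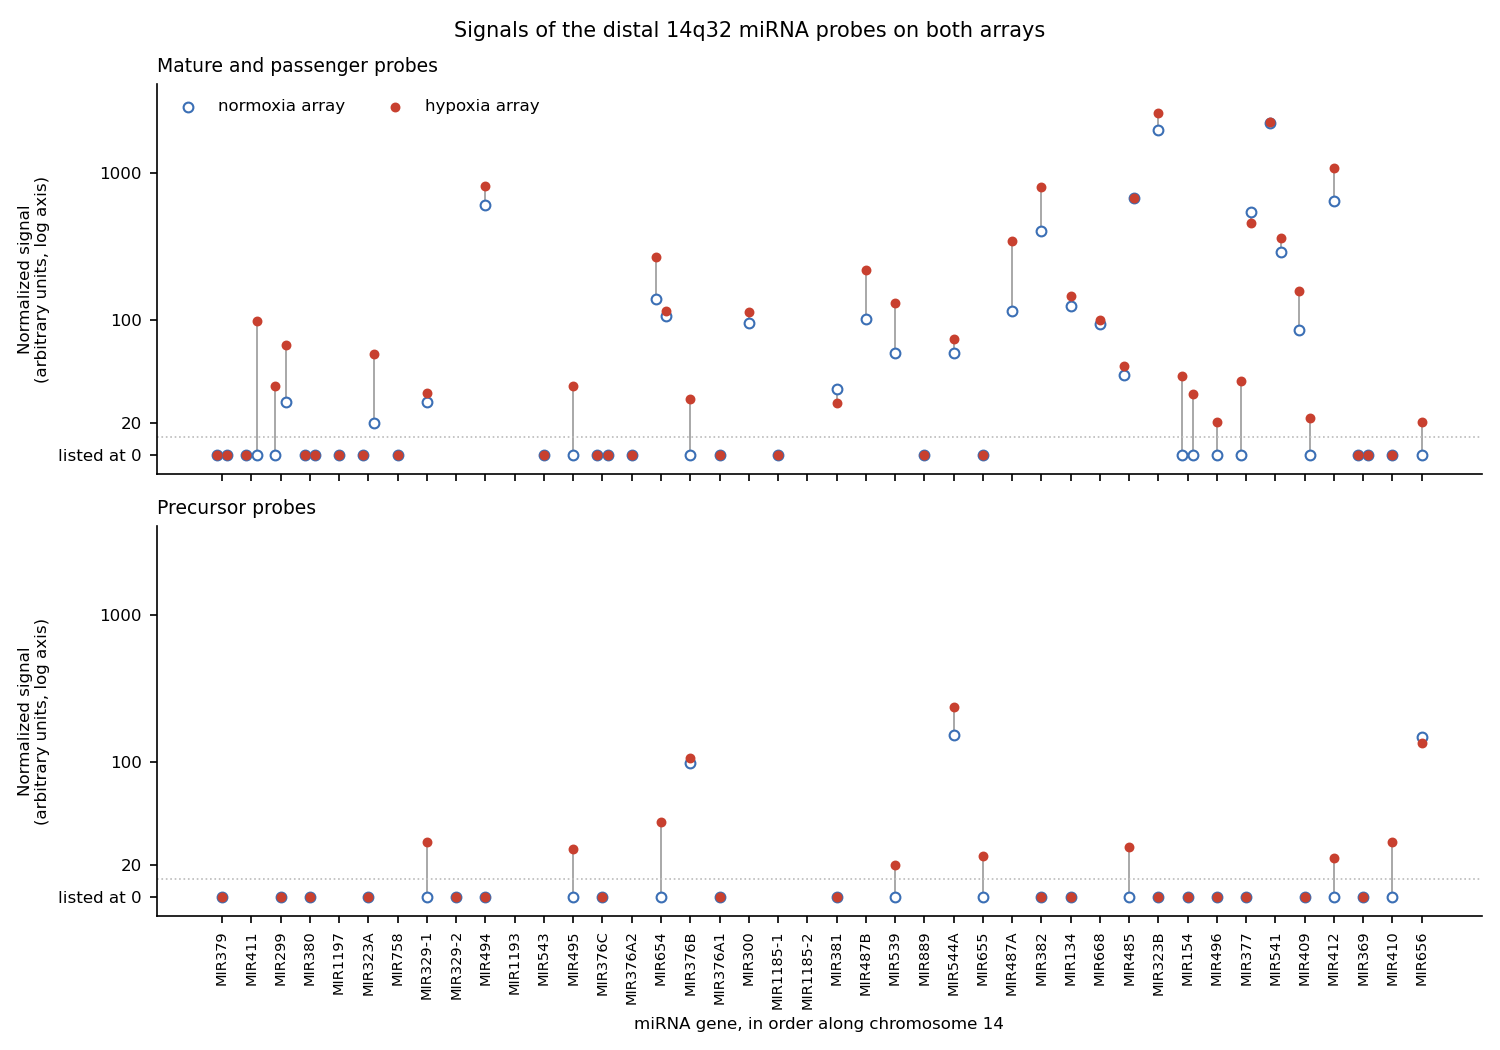
Normalized signal (log axis, with a separate level for probes listed at 0) of each mature or passenger probe (top) and precursor probe (bottom) of the distal 14q32 group, by miRNA gene in order along chromosome 14. Open circles are the normoxia array and filled circles the hypoxia array, and a probe of 2 genes (miR-329, miR-376a and miR-1185) stands at the gene that comes first. Signals on both arrays were listed for 23 mature or passenger probes and 3 precursor probes.

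The genes of the 6 miRNAs over 2-fold higher were numbers 3, 6, 23, 24, 28 and 29 of the 42 in order from MIR379. The miR-487a probe read 115 on the normoxia array and 345 on the hypoxia array, a fold change of 2.99. The miR-487b probe read 102 and 220 (2.16-fold). These miRNAs are near copies, and the primary transcript of miR-487b is a known target of A-to-I editing. For miR-323-5p, from the 5′ arm of MIR323A, the values were 20 under normoxia, the lowest listed on the arrays, and 58.7 under hypoxia (2.93-fold). Another dim probe was that of miR-299-5p, at 27.7 and 67.7 (2.45-fold). The values of both lie close to the lowest listed signal. miR-539 was listed at 59.3 and 130 (2.19-fold). For miR-382 the readings were 402 and 806 (2.01-fold), the smallest ratio of the 6. Among the 663 probes, ranked from the highest fold change down, miR-487a stood at place 12, miR-323-5p at 14, miR-299-5p at 32, miR-539 at 49, miR-487b at 51 and miR-382 at 63.

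Just under the threshold were 3 more members. miR-654-3p read 140 and 270 (1.93-fold). The values were 85 and 157 (1.85-fold) for miR-409-3p, which has been reported to repress angiogenin in human tumour cells, and 644 and 1079 (1.68-fold) for miR-412. No other mature or passenger member exceeded 1.5-fold.

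**Figure D2:**
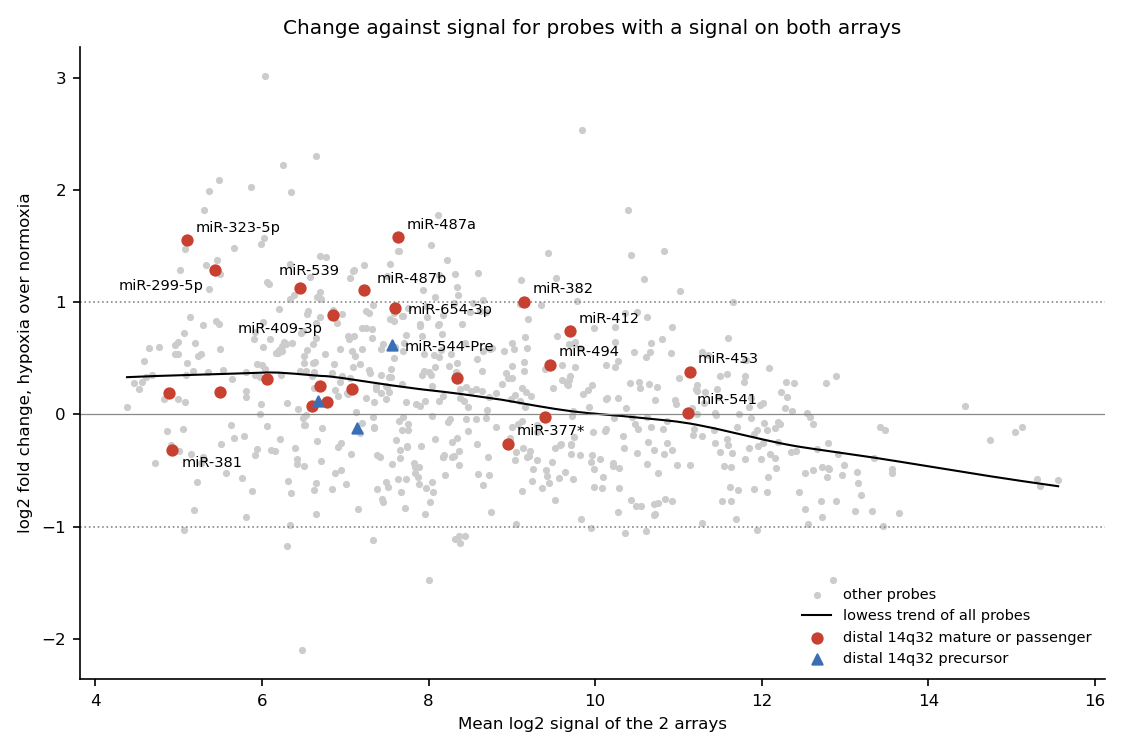
log2 fold change of hypoxia over normoxia against the mean log2 signal of both arrays for each of the 663 probes listed on both. Circles are mature or passenger and triangles precursor probes of the distal 14q32 group, grey points are other probes, the line is the lowess trend and dotted lines mark 2-fold. The 6 members above the upper dotted line span a wide range of signal, from miR-323-5p to miR-382.

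How far the ratios of these 6 depended on scaling differed between them. miR-487a stayed over 2-fold under each of 10 other ways of processing that gave it a value, with log2 fold changes from 1.26 to 2.13. miR-323-5p was removed by both filters on dim probes and was under 2-fold when 50 was added to each signal (0.63), and its normoxia reading was the lowest value listed. The other 4 were under 2-fold once arrays were quantile normalized, the trend was taken out or 50 was added. Median centring left miR-299-5p above it (1.15) and miR-487b, miR-539 and miR-382 below, and adding 16 left only miR-487b of the 4 at the threshold (1.00). Both filters on dim probes also removed miR-299-5p, whose normoxia signal was 27.7. The log2 fold change of miR-382 was 0.87 when medians were centred, 0.84 when arrays were quantile normalized and 0.91 with the trend taken out. With the trend taken out, miR-487a was at 1.33 and its near copy miR-487b at 0.82.

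**Figure D3:**
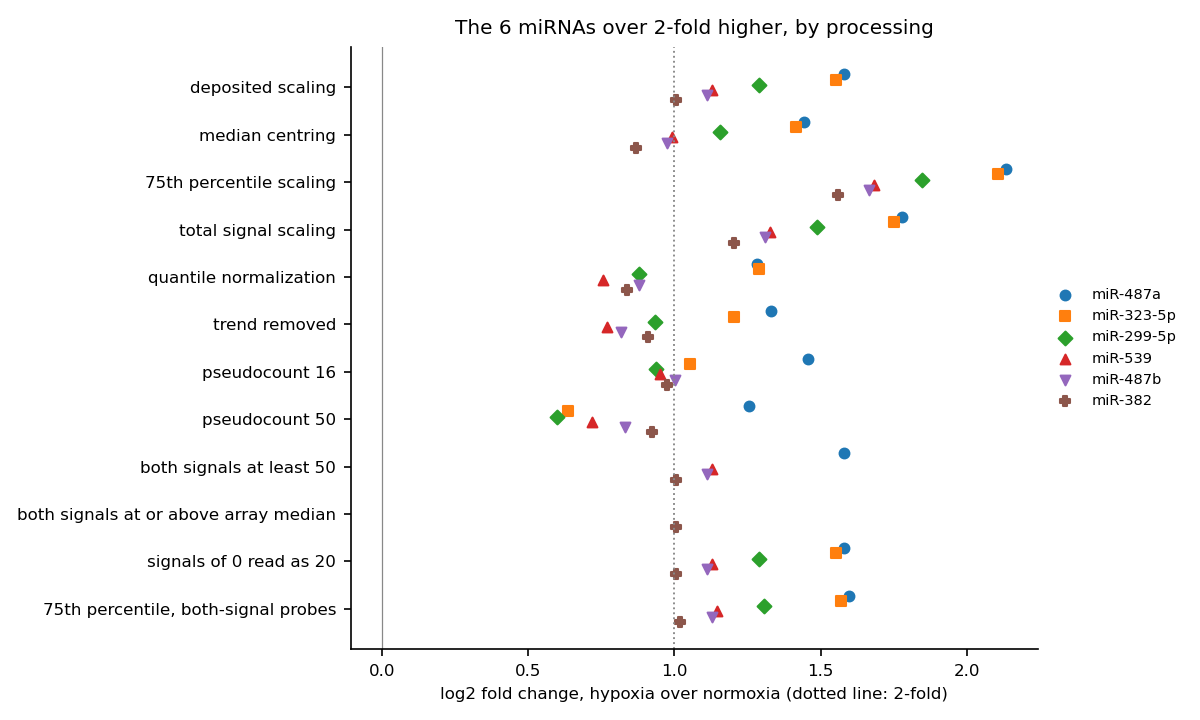
log2 fold change (horizontal axis, dotted line at 2-fold) of the 6 miRNAs over 2-fold higher, under the deposited scaling and each alternative (rows). A missing point means that a filter removed the probe. All values are above 0, and miR-487a is the only one of the 6 over 2-fold in every row that gives it a value.

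The remaining 14 mature and passenger members with both signals differed by under 1.5-fold, and for most of them the direction went with the scaling. Exceptions were miR-494, miR-453 and miR-541*, which were higher in each alternative that gave them a value. Their lowest log2 fold changes were 0.31, 0.25 and 0.11. After 75th percentile scaling all 23 members with both signals were higher under hypoxia. That scaling moved the median log2 fold change of all probes with both signals from 0.14 to 0.69. The share of all probes that was higher under it is not given, so the count of 23 is not read as a result about the group. Over the alternatives miR-541, miR-485-5p, miR-485-3p, miR-300, miR-381, miR-544 and miR-654-5p took either sign. So did miR-134, miR-329, miR-668 and miR-377*, which were lower once the trend was taken out. The 6 mature members with the highest mean signals were miR-453 (now miR-323b-5p), miR-541, miR-412, miR-494, miR-485-5p and miR-382, of which miR-412 and miR-382 are given above. miR-453 was listed at 1971 and 2568 (1.30-fold), and miR-541 at 2204 and 2228 (1.01-fold). miR-494 read 603 and 821 (1.36-fold). miR-485-5p, of a gene that in rat neurons limits a synaptic vesicle protein, read 681 and 672. Signals of different probes also depend on how well each probe binds, so an order of levels is one of readings and not of amounts. Among miRNAs known from neurons, miR-134, a repressor of the kinase Limk1 in rat dendrites, was listed at 125 and 146 (1.17-fold), miR-329 at 27.7 and 31.7 (1.14-fold) and miR-381 at 33.7 and 27. Lower under hypoxia were miR-381 (1.25-fold), miR-377* (543.7 and 454, 1.20-fold) and miR-485-5p (1.01-fold). miR-668 (94.3 and 99.3), the neighbour of MIR134 on the side away from MIR382, differed by 1.05-fold.

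On the hypoxia array only, 10 mature or passenger members had a signal, and these were 10 of the 29 (34.5%) listed at 0 under normoxia, beside 23.4% of such probes on the whole array. Their hypoxia signals had a median of 33.5, and 9 of the 10 were under 50. The exception was miR-411*, the 3′ arm of MIR411, at 97.7. Next came miR-154 at 41.7, miR-377 at 38.7, and miR-299 and miR-495 at 35.7 each. miR-154* was at 31.3, miR-376b at 29, miR-409-5p at 21.7, and miR-496 and miR-656 at 20.3 each. No fold change is given for these probes. The 19 without a signal on either array included both arms of MIR379, MIR380 and MIR369, the probes of miR-376a and miR-376c, and miR-410 and miR-543. The miR-376 miRNAs are known for A-to-I editing within the seed in human brain, and of this family only miR-376b had any mature signal here, at 29 under hypoxia.

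Few precursor probes of the group gave a signal. Of the 28, 3 were listed on both arrays (10.7%), 8 on the hypoxia array only (28.6%) and 17 on neither (60.7%). For all 450 precursor probes of the array these shares were 34.0%, 19.6% and 46.2%. Which part of the hairpin a precursor probe binds is not stated in the sources used here, and a mature miRNA's sequence lies within its hairpin. The 3 precursors with both signals and that of miR-382, which had none, are shown with the mature miRNA on the array in capitals.
MIR544A: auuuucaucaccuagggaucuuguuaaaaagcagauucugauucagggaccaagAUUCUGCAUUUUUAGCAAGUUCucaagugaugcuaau
MIR376B: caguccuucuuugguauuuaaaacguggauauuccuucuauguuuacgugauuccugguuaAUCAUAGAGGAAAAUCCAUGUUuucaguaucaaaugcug
MIR656: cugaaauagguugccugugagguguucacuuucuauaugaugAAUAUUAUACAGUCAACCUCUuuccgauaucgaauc
MIR382: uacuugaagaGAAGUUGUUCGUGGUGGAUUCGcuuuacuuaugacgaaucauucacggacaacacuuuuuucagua
Capitals mark miR-544a, miR-376b-3p, miR-656-3p and miR-382-5p. The miR-544 precursor probe read 153 under normoxia and 234 under hypoxia (1.53-fold). The precursor of miR-376b was listed at 98 and 106 (1.08-fold) and that of miR-656 at 147 and 135 (1.09-fold lower). Both directions turned with the scaling, to a log2 fold change of -0.26 for miR-376b after quantile normalization and 0.43 for miR-656 after 75th percentile scaling. No precursor of the group was over 2-fold higher or lower, beside 11.8% and 1.31% of the 153 precursor probes of the array with both signals, of which 65.4% were higher by any amount. With 3 members measured, nothing is read from these shares. The 8 precursors with a signal under hypoxia only were 8 of 25 (32%) at 0 under normoxia, close to the 29.7% of all precursor probes, with signals from 20 to 39, the highest that of miR-654.

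Gene by gene, mature and precursor probes were set side by side. Both kinds of probe were on the array for 28 genes. In 5 of them neither kind had a signal, and in MIR495 both had one under hypoxia only. In 16 of the 28 a mature or passenger probe had a signal on both arrays, the dim miR-329 probe being counted for both MIR329-1 and MIR329-2. In 1 of these 16, MIR544A, the precursor did too, and there the mature probe read 59.7 and 74.3 (1.25-fold), a smaller ratio than that of its precursor. In the other 15 the precursor was listed at 0 under normoxia, with 5 of them at a hypoxia signal (MIR329-1, MIR654, MIR539, MIR485 and MIR412) and 10, including MIR382 and MIR134, at 0 on both arrays. MIR376B and MIR656 had a precursor signal on both arrays and a mature signal on the hypoxia array only. Precursor probes of MIR487A and MIR487B were not analysed here, so the miRNA with the highest ratio has no precursor reading to set beside it. For 2 genes, MIR655 and MIR410, the precursor alone had a signal, at 23 and 28.7 under hypoxia.

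Along the chromosome, the longest run of neighbouring genes with a mature signal on both arrays was MIR487A, MIR382, MIR134, MIR668, MIR485 and MIR323B, genes 28 to 33 of the 42. Within this run the fold change fell from 2.99 at MIR487A and 2.01 at MIR382 to 1.17 at MIR134 and 1.05 at MIR668, followed by 1.15 and 0.987 for the arms of MIR485 and 1.30 for miR-453 of MIR323B at the far end. A second run of 4 genes went from MIR377 to MIR412, with values from 1.20-fold lower for miR-377* to 1.85-fold higher for miR-409-3p. From MIR1193 to MIR376A2, genes 11 to 15, no mature probe had a signal on both arrays. Among the genes of the 6 miRNAs over 2-fold higher, MIR487B and MIR539 were direct neighbours, as were MIR487A and MIR382. MIR299 and MIR323A stood alone, since neither had a direct neighbour with a mature signal on both arrays.

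Both arms were on the array for 12 hairpins, and in 3 of them both arms had a signal on both arrays. In MIR654 the arms moved unequally, with 1.93-fold for miR-654-3p and 1.08-fold for miR-654-5p (106 and 115). The log2 fold changes of these arms differed by 0.84. The difference was smaller for MIR485, at 1.15-fold for miR-485-3p (42 and 48.3) and 0.987-fold for miR-485-5p. It was also smaller for MIR541, at 1.01-fold for miR-541 and 1.25-fold for miR-541* (289 and 362), where the 5′ arm had the higher ratio. In 3 other hairpins 1 arm had both signals. These were MIR323A, whose 3′ arm was listed at 0 on both arrays while miR-323-5p was over 2-fold higher, and MIR377 and MIR409, whose other arm had a hypoxia signal only. Without replicates, none of these differences between arms could be tested.

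Common seeds are known to give miRNAs common targets, and 5 seeds of the 44 in the group occurred in 2 members each. The pairs are shown because they let the same seed be followed in different genes.
miR-487a: aAUCAUACagggacauccaguu
miR-154*: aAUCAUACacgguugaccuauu
miR-300: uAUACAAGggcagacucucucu
miR-381: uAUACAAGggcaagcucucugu
miR-654-5p: uGGUGGGCcgcagaacaugugc
miR-541: uGGUGGGCacagaaucuggacu
miR-379*: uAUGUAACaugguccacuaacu
miR-411*: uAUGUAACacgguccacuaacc
miR-376a: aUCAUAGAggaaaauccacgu
miR-376b: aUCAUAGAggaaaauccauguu
miR-487a had the highest ratio of the group under the deposited scaling (after quantile normalization miR-323-5p was at 1.29 and miR-487a at 1.28 on the log2 scale), and miR-154* was at 0 under normoxia and 31.3 under hypoxia. miR-300 (95 and 113) was 1.19-fold higher and miR-381, close to the lowest listed signal, 1.25-fold lower. Neither direction held under all scalings, with log2 fold changes of -0.13 for miR-300 after quantile normalization and 0.24 for miR-381 after 75th percentile scaling. miR-654-5p and miR-541 differed by 1.08-fold and 1.01-fold. In the pairs miR-379* with miR-411* and miR-376a with miR-376b, only the latter of each had a signal, on the hypoxia array. In the best ungapped overlap, miR-487a matched miR-487b at 19 of 22 bases, as did miR-323-5p and miR-453, miR-379* matched miR-411* at 20 of 22, and miR-300 matched miR-381 at 19 of 22. Both near copies of the miR-487 pair were over 2-fold higher (2.99-fold and 2.16-fold), while miR-323-5p and miR-453 were at 2.93-fold and 1.30-fold. Binding of 1 miRNA to the probe of a near copy was not tested, so the values of these pairs are uncertain.

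The arrays on which a member had a signal went with its base composition. The median share of G and C was 50% for the 22 members with a known sequence and a signal on both arrays, 36.4% for 9 with a hypoxia signal only and 38.1% for 18 without a signal. Of the 16 members with under 40% G and C, only miR-544 had a signal on both arrays, while 12 of the 16 with at least 50% did. Outside the group, where 294 of 827 mature probes carried a RefSeq name letter for letter, 20 of 60 with under 40% and 93 of 155 with at least 50% had both signals. Among the 22, the share of G and C went little with the log2 fold change (Pearson's r = -0.0056, Spearman's rho = -0.19, across miRNAs of the same 2 arrays, which are not replicates).

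**Figure D4:**
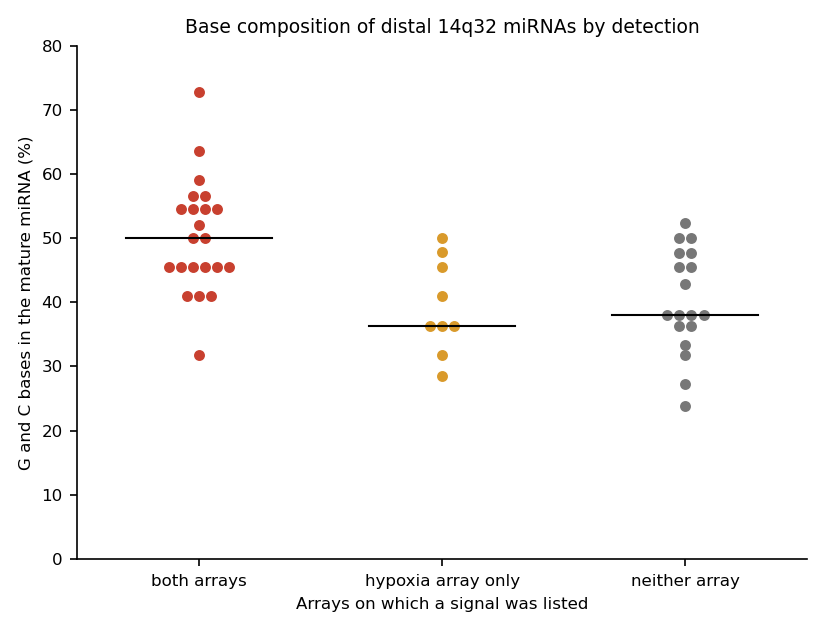
Share of G and C bases (vertical axis, %) of each distal 14q32 mature or passenger miRNA with a RefSeq sequence, by the arrays on which its probe had a signal. Points are miRNAs and lines are medians, at 50%, 36.4% and 38.1%, and only 1 miRNA with both signals has under 40%.

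The proximal 14q32 group, from MIR770 to MIR370 on the other side of the snoRNA genes of the same cluster, had 25 probes. Of its 17 mature and passenger probes 9 had both signals, 6 of them higher and 3 lower, with a median log2 fold change of 0.39 and 1 over 2-fold higher (miR-432, with a log2 fold change of 1.03). Another 6 had a hypoxia signal only and 2 had none (11.8%). In the distal group 19 of 52 had none (36.5%), beside 32.1% of all mature and passenger probes of the array. Among 8 proximal precursors, 1 had both signals. As both groups were read on the same single pair of arrays, the difference between them was not tested.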

How the data were processed

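Total RNA of MKN1 cells was labeled by the authors with biotin at uncapped 5′ ends and read on a human miRNA array of GenoSensor, whose probes follow miRBase. The authors scaled the arrays globally in GeneSpring GX (version not stated), and the deposited values are the resulting signal intensities on a linear scale, from 1 array per condition. The signals of all 1329 probes were equal in both deposited tables, with no tolerance. The deposited ratios, p-values and detection marks hold the authors' own comparison and were not used.

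Each probe's hypoxia signal was divided by its normoxia signal where both were above 0, with no pseudocount or filter, at the 2-fold threshold of the study's methods. Its t-test was not run, since 1 array per condition leaves no replicate, and the number of arrays limits the precision. The members and lists were chosen with earlier results of these data known. Named were members over 2-fold, the 6 brightest mature members, genes with mature and precursor or both arms measured, the brightest members on 1 array only, miR-382 with any other 14q32 miRNA of the paper's text (there was none), and members with a shared seed. Further members given as examples were picked once their values had been seen. Gene order came from RefSeq GRCh38.p14, and near copies were found by ungapped overlaps of at least 16 bases. The probes named miR-299 and miR-368 were given no arm, and miR-668-3p was matched by name only. The lowess span was 0.4. Simulated shifts, put on normoxia signals above 0, were run through the plain ratio, median centring, 75th percentile scaling, quantile normalization and removal of the trend. The other alternatives were not run on simulated data. Alternatives were median centring, scaling on the 75th percentile or the total signal, quantile normalization, removal of the trend, pseudocounts of 16 and 50, filters on dim probes, signals of 0 read as 20, the other table, and thresholds of 1.5-fold and 3-fold. The tools were Python 3.11.15, numpy 2.4.6, pandas 2.3.3, statsmodels 0.14.6 and matplotlib 3.10.9.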

Additional observations from a re-analysis of the deposited data

How the results depend on the processing

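No paired analysis was possible because each condition had a single array. With 1 array each, the values below say how the same readings respond to processing, not how they would repeat, and the cause of a shift was not tested unless the step itself sets it. The other deposited table gave the same values. The count of 6 members over 2-fold higher became 3 with median centring, 2 with quantile normalization and 2 with the trend taken out, 3 and 1 with pseudocounts of 16 and 50, 10 after 75th percentile scaling, 1 where both signals were at or above their array's median, 10 at 1.5-fold and 0 at 3-fold. It was 8 with total signal scaling, 8 with signals of 0 read as 20 and 4 where both signals were at least 50. On the whole array 64 probes were over 2-fold higher, 47 with median centring, 37 with quantile normalization, 37 with the trend taken out, 45 and 24 with pseudocounts of 16 and 50, 205 with 75th percentile scaling, 104 with total signal scaling, 99 with signals of 0 read as 20, 43 where both were at least 50 and 12 where both were at or above their array's median. The count of members over 2-fold lower stayed at 0 under these settings. Over 1.5-fold higher were 10 of the 26 members with both signals, beside 158 of the 663 probes of the array. The whole-array count at 3-fold is not given, nor are the numbers of probes that the filters kept. The counts of members in these settings therefore stand without a share of the array. The median log2 fold change of the mature and passenger members (0.33) was 0.19 after median centring, 0.88 after 75th percentile scaling, 0.52 after scaling on the total signal, 0.11 after quantile normalization, 0.14 with the trend removed and 0.44 over 33 members with signals of 0 read as 20. For the 3 precursors the median (0.12) was -0.019, 0.67, 0.32, -0.26 and -0.23 in the same order, and with signals of 0 read as 20 it was 0.34 over 11 precursors. With 0 read as 20, which brings more probes in, a mature probe had a larger change than its precursor in 5 of 9 genes, against 0 of 1. All of the 9 except MIR544A entered only through a 0 read as 20, which partly sets their changes. Where a gene had more than 1 mature probe, the largest change was used. Nothing is therefore read from this count. The 75th percentile taken over signals above 0 included 172 more probes on the hypoxia array than on the other, which moved the median of all probes to 0.69. Taken over the 663 probes with both signals, a choice made after the data were seen, it left 6 members over 2-fold.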
